A study of Sus scrofa with 8 samples.

Results

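Messenger RNA of 9 genes of steroid hormone reception was followed in the endometrium, the inner lining of the uterus, of 8 German Landrace gilts on day 14. The genes were taken by name: the oestrogen receptor genes ESR1, ESR2 and GPER1, the oestrogen-responsive gene GREB1, the progesterone receptor gene PGR, the membrane-associated progesterone receptor component genes PGRMC1 and PGRMC2, the glucocorticoid receptor gene NR3C1 and its co-chaperone gene FKBP5. They are 9 of 21064 Entrez genes in the count tables, and each had 1 transcript there. All gilts were prepubertal and received 750 IU of PMSG and, 72 h later, 500 IU of hCG, hormones that start follicle growth and ovulation. The 4 pregnant gilts were then inseminated with Pietrain semen at 24 h and 36 h after hCG, and the 4 control gilts with sperm-depleted supernatant from semen of that boar. Each library holds RNA pooled from 3 places along a uterine horn of 1 animal. Pregnant tissue came from the reddened zones of embryo attachment, so pregnancy and the choice of zone cannot be told apart. The ovaries of all 8 animals had been stimulated, and no untreated cycle was included.

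Steroid receptors of the nuclear family are transcription factors that bind their hormone and then DNA. Oestrogen acts through ESR1 and ESR2 and, at membranes, through the G protein-coupled receptor GPER1, and it is known to raise PGR in the uterus. Pig conceptuses (the embryos with their membranes) secrete oestrogen as a signal of pregnancy to the mother, while the corpora lutea supply progesterone. In pig endometrium PGR is known to be lost from epithelium and kept in stroma during the time of attachment. The nuclear receptors wait for hormone in complexes with heat shock proteins, and FKBP5 is both part of such complexes and a target of progesterone and glucocorticoid action.

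The pattern across the 9 genes was divided. In pregnant endometrium ESR1 was 2.51-fold and GPER1 3.51-fold lower, and GREB1 was 12.4-fold higher. The other oestrogen receptor gene, ESR2, had reads in pregnant animals only. PGR, PGRMC1, PGRMC2, NR3C1 and FKBP5 did not pass the test. Levels are given as CPM, the usual unit of counts scaled to a common library size, and changes as log2 of pregnant over control ± SE, tested with edgeR (quasi-likelihood), p-values being adjusted by Benjamini and Hochberg's method over 18783 transcripts. The replicates are animals, so these p-values set the difference between the groups against the variation between animals. Of the 8 genes that could be tested 1 rose, 2 fell and 5 did not pass an adjusted p of 0.05, that is 3 of 8 where 21.3% of all transcripts passed. With so few genes this share is a description only. Among all transcripts 11.2% passed as higher and 10.1% as lower, and the median log2 change was −0.02.

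**Figure D1:**
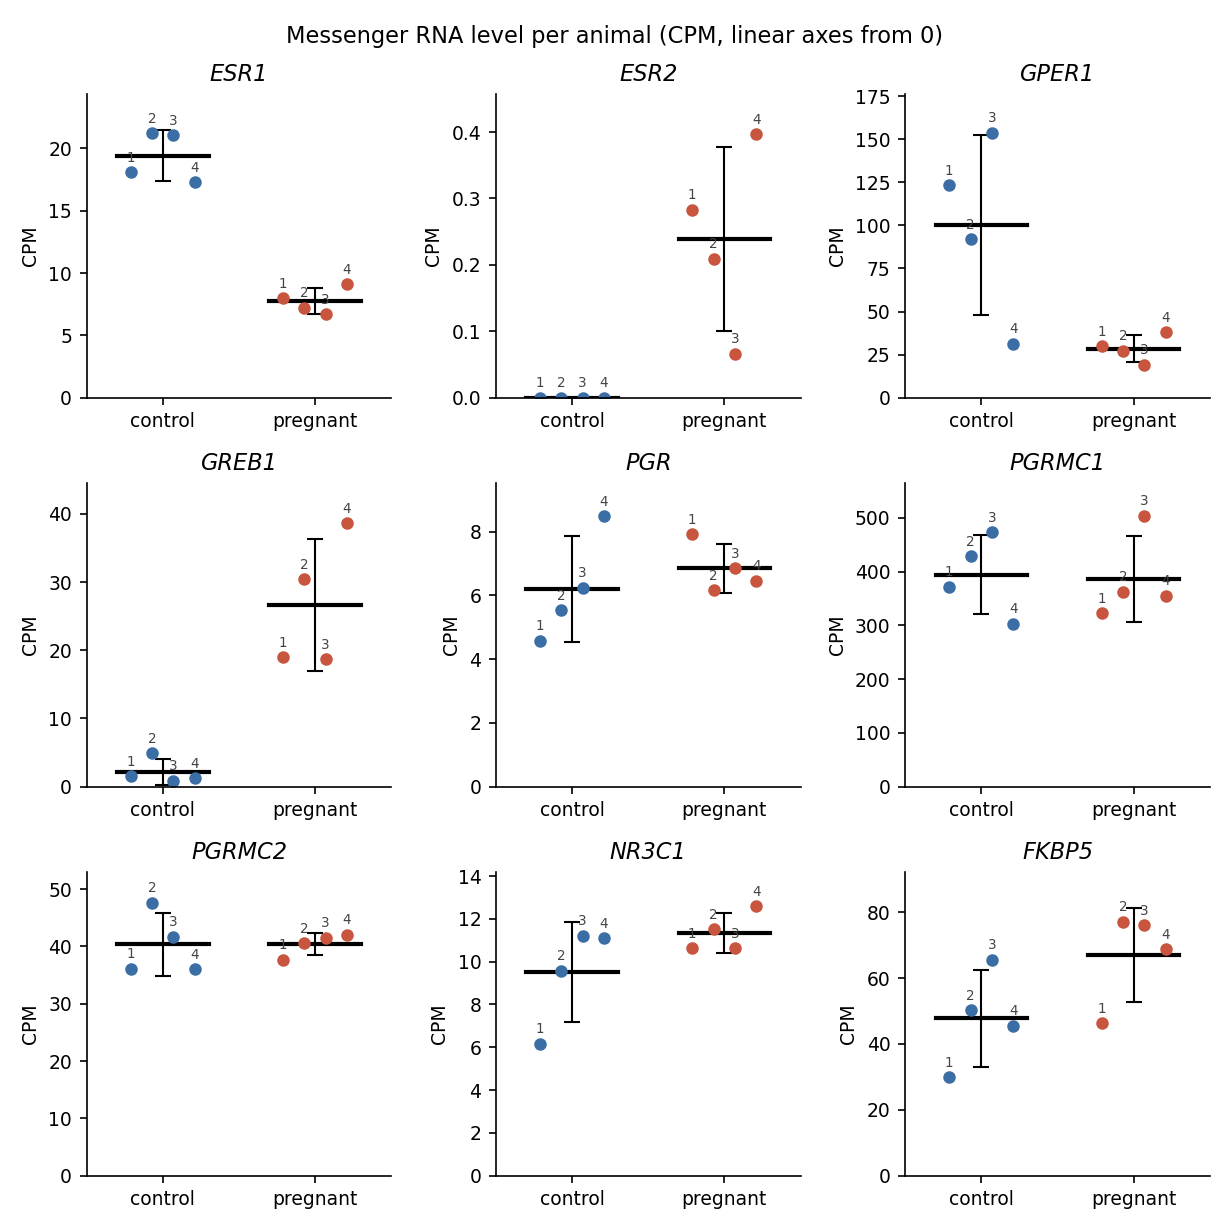
Level of each gene in CPM (linear axes from 0) in 4 control and 4 pregnant animals. Points are animals labelled with their replicate number, the bar is the group mean and the whisker the SD. For ESR1, ESR2 and GREB1 the groups lie apart. For GPER1, control replicate 4 at 31.4 CPM sits among the pregnant animals.

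Library totals ran from 28035007 to 41016150 counts. In a principal component analysis of 500 highly variable transcripts, on the leading axis, control replicate 4 scored −27.8, the other controls −46.1 to −42.3 and the pregnant animals 35.5 to 42.2, so that this control lay nearest to the pregnant group. The changes of the 8 tested genes and the 4 ratios are therefore also given without it. The labels give no batch. Each marker list of epithelial, stromal, smooth muscle, endothelial and immune cells had reads in each library, which by itself does not identify the tissue. Of 12 listed epithelial markers 9 were matched, with a summed level of 2455 to 3780 CPM in controls and 1892 to 2589 CPM in pregnant animals. Of these 9, CLDN4 rose (mean 493 and 1024 CPM), KRT8 (1257 and 294 CPM), KRT18, KRT19 and ESRP1 fell, and 4 did not pass. The 10 matched of 12 stromal fibroblast markers summed to 25953 to 31091 CPM in controls and 16956 to 24752 CPM in pregnant animals. Of these 10, COL3A1, COL6A3 and DPT fell, THY1 and LUM rose and 5 did not pass, and most of the sum is COL3A1 (mean 14899 and 9338 CPM) and COL1A2 (8719 and 7450 CPM). The 8 matched of 10 smooth muscle markers summed to 878 to 1307 CPM in controls and 604 to 891 CPM in pregnant animals. Of 7 tested, 4 fell and 3 did not pass. The 10 matched of 11 vascular endothelial markers summed to 1085 to 1554 and 1250 to 1695 CPM. Of these 10, 2 rose and 8 did not pass. T and natural killer cell markers (11 of 12 matched) summed to 32.3 to 77.7 CPM in controls and 156 to 249 CPM in pregnant animals, and all 11 rose. Among them GZMA (0.199 to 0.286 CPM in controls) reached the test only through its counts in pregnant animals. Its call as higher is a description only. Macrophage markers (9 of 11 matched) summed to 387 to 708 and 1133 to 1514 CPM. Of these 9, 7 rose, MRC1 fell (log2 change −0.77 ± 0.22) and ADGRE1 (−0.25 ± 0.30) did not pass. The shares called in either direction were 55.6% of epithelial, 50% of stromal, 57.1% of smooth muscle and 20% of endothelial markers. They were 100% of T and natural killer cell and 88.9% of macrophage markers, beside 21.3% over all transcripts. The endothelial share was thus near that of all transcripts. No matched marker of these lists was without reads in the 8 libraries together. The part of these shifts in the receptor results below was not tested, and in whole tissue fewer cells of a type and less RNA per cell cannot be told apart.

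ESR1 encodes oestrogen receptor alpha, the main oestrogen receptor of the uterus (Entrez gene 397435, Sscrofa10.2 chromosome 1, 16546665 to 16577162, minus strand). Its level was 18.1, 21.2, 21.1 and 17.3 CPM in control replicates 1 to 4. In pregnant replicates 1 to 4 it was 8.00, 7.21, 6.68 and 9.09 CPM. Every pregnant animal lay below every control, with less than 1.4-fold between the lowest and highest animal of either group (1.23-fold in controls and 1.36-fold in pregnant animals). The log2 change was −1.33 ± 0.15 (95% interval −1.66 to −0.99, edgeR adjusted p = 1.94e-04). It was −1.38 without control replicate 4, and from −1.41 to −1.26 when any 1 animal was left out. The biological coefficient of variation estimated by edgeR was 17.3% for ESR1, below the median of 21.7% over all transcripts tested. The deposited ESR1 model has 3 exons with 556 bases, a short piece of what is known to be a long messenger RNA. The counts therefore cover only this piece, and forms of ESR1 that lack it were not measured.

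ESR2 encodes oestrogen receptor beta (Entrez gene 396697, chromosome 1, 215715908 to 215788511, plus strand). It had 0 reads in each of the 4 controls and 8, 8, 2 and 13 reads in pregnant replicates 1 to 4. The 31 reads of the pregnant group together (0.239 CPM) stood 10.2-fold above a floor of 3 counts over the control group (0.0235 CPM). ESR2 was therefore at the edge of detection in pregnant endometrium (0.283, 0.209, 0.0662 and 0.397 CPM) and below it in controls. It was left out of the test by the filter on low counts. When that filter was dropped, ESR2 was called as higher. It entered that fit only through its reads in pregnant animals, so this call is a description only. The fitted change and its p-value depend on the handling of zeros and are not given. Low counts in these tables were mostly even. Of 18162 counts between 1 and 10 in the 8 libraries, 76.4% were even, and the value 2 occurred 5502 times against 1147 times for the value 1. The cause was not tested, and 31 reads may stand for fewer fragments. The fold above a floor of 3 fragments would then be smaller. The floor covers counting error in controls only, not that of the 31 reads or the spread between animals. Of the conceptus markers, 4 were tested: PAG1 rose, HNF4A fell, and NANOG (log2 difference −1.86) and GATA6 (0.24) did not pass. The share called was 50%, beside 21.3% over all transcripts, and with so few genes it is a description only. PAG1 (0.203 to 0.516 CPM in controls) reached the test through its counts in pregnant animals (0.827 to 1.19 CPM). Its call as higher is likewise a description only. The 13 matched of 17 summed to 10.2 to 17.7 CPM in controls and 9.80 to 15.2 CPM in pregnant animals. Of the 9 that the filter on low counts left out, 6 had more reads in the pregnant group and 3 had fewer. The former were IFNG (4 reads in all controls and 26 in all pregnant animals), IL1B2 (2 and 14), the placental aromatase gene CYP19A2 (0 and 14), POU5F1 (0 and 10), CDX2 (0 and 4) and ELF5 (15 and 40). The latter were TTR (132 and 38), CYP17A1 (11 and 7) and AFP (2 and 0). All POU5F1 reads came from pregnant replicate 3 and all CDX2 reads from pregnant replicate 1. Of the TTR reads, 78 and 48 were in control replicates 1 and 2, and all 38 of the pregnant group were in replicate 4. Whether conceptus RNA had a part in the ESR2 reads was not tested.

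GPER1 encodes the membrane oestrogen receptor (Entrez gene 100521003, chromosome 3, 828306 to 833132, plus strand). It stood at 123, 92.0, 154 and 31.4 CPM in control replicates 1 to 4. The pregnant replicates 1 to 4 had 29.9, 27.2, 19.1 and 37.8 CPM. Of the controls, replicate 4 was at 0.255 of the mean of the other 3 and inside the pregnant range, so the groups overlapped. The log2 change was −1.81 ± 0.42 (95% interval −2.76 to −0.86, edgeR adjusted p = 0.0144). Without control replicate 4 it was −2.11 with an adjusted p = 2.33e-04. Without control replicate 1 it was −1.66 with an adjusted p = 0.0507, which did not pass (range over all alternatives 3.24e-05 to 0.0824). The variation between animals was large, with a biological coefficient of variation of 40.2%.

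GREB1 is among the genes most directly induced by oestrogen through ESR1, and its product is a cofactor of that receptor (Entrez gene 100511013, chromosome 3, 133940543 to 133974160, plus strand). Controls had 1.49, 4.91, 0.863 and 1.26 CPM in replicates 1 to 4. Pregnant animals had 19.0, 30.4, 18.7 and 38.6 CPM. The groups lay far apart, although control replicate 2 was well above the other controls. The log2 change was 3.64 ± 0.53 (95% interval 2.44 to 4.83, edgeR adjusted p = 0.00116), which corresponds to 12.4-fold with an interval of 5.44-fold to 28.5-fold. It was 4.47 without control replicate 2 and 3.45 without control replicate 4. GREB1 had the largest biological coefficient of variation of the 8 tested genes, 48.3%. ESR1 and GREB1 were the 2 tested genes whose groups did not overlap, a pattern seen in 26.1% of all transcripts tested.

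**Figure D2:**
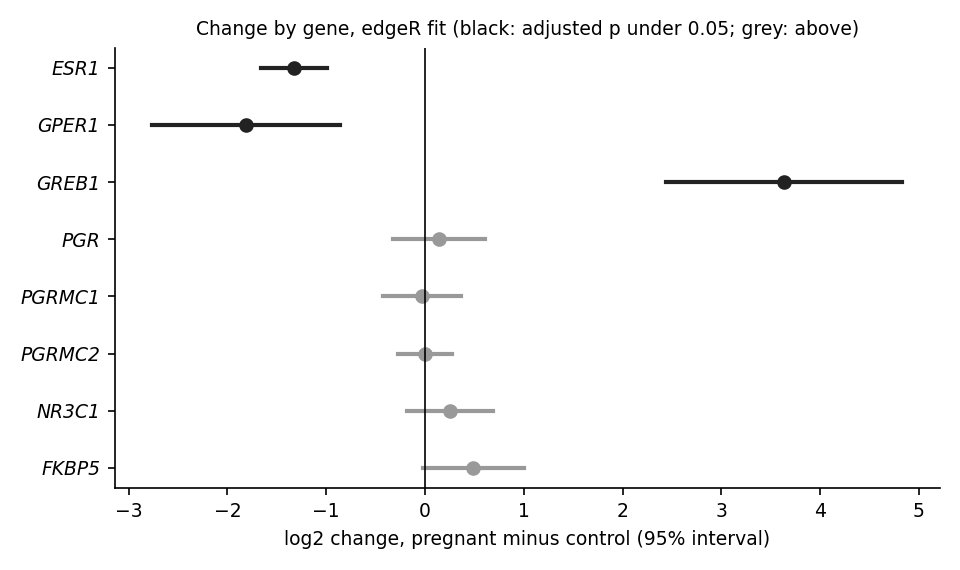
Log2 change of pregnant over control (horizontal axis) with its 95% interval for the 8 tested genes. Black marks passed an adjusted p of 0.05 and grey marks did not. ESR1 and GPER1 lie below 0 and GREB1 above it, and the grey intervals include 0.

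PGR encodes the nuclear progesterone receptor (Entrez gene 396805, chromosome 9, 36044788 to 36138539, minus strand). Its level was 4.58, 5.54, 6.24 and 8.48 CPM in control replicates 1 to 4 and 7.93, 6.17, 6.85 and 6.47 CPM in pregnant replicates 1 to 4. All 4 pregnant values fell inside the control range, whose top was control replicate 4 at 1.55 times the mean of the other controls. The log2 difference was 0.14 ± 0.21 (edgeR adjusted p = 0.681), with a 95% interval of 0.80-fold to 1.52-fold. Without control replicate 4 it was 0.33 (adjusted p = 0.276).

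PGRMC1 and PGRMC2 encode haem-binding membrane proteins linked to progesterone signalling that are not nuclear receptors (Entrez genes 396946 and 100048965, chromosome X, 113925760 to 113933799, and chromosome 8, 103564271 to 103581671, both plus strand). PGRMC1 was at 372, 429, 473 and 303 CPM in control replicates 1 to 4 and at 323, 363, 504 and 355 CPM in pregnant replicates 1 to 4. PGRMC2 was at 36.1, 47.6, 41.7 and 36.0 CPM in controls and at 37.7, 40.6, 41.5 and 42.0 CPM in pregnant animals. For both genes the groups lay over each other. The log2 difference of PGRMC1 was −0.03 ± 0.18 (edgeR adjusted p = 0.929, 95% interval 0.75-fold to 1.29-fold). That of PGRMC2 was 0.00 ± 0.12 (edgeR adjusted p = 0.986, 95% interval 0.83-fold to 1.21-fold), the narrowest interval among the 8 tested genes. Without control replicate 4 these differences were −0.14 (adjusted p = 0.618) and −0.047 (adjusted p = 0.836). A 2-fold change lay outside the interval for these 2 genes and also for PGR and NR3C1.

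NR3C1 encodes the glucocorticoid receptor (Entrez gene 396740, chromosome 2, 151055279 to 151158578, minus strand). It was at 6.17, 9.58, 11.2 and 11.1 CPM in control replicates 1 to 4 and at 10.6, 11.5, 10.6 and 12.6 CPM in pregnant replicates 1 to 4. Control replicate 1 was the low animal, and replicates 3 and 4 lay inside the pregnant range. The log2 difference was 0.25 ± 0.20 (edgeR adjusted p = 0.396, 95% interval 0.88-fold to 1.61-fold), and it was 0.12 without control replicate 1 and 0.33 without control replicate 4. FKBP5, which lowers the hormone affinity of receptor complexes (Entrez gene 100155423, chromosome 7, 36373068 to 36478462, minus strand), was at 29.9, 50.2, 65.6 and 45.5 CPM in control replicates 1 to 4. Pregnant replicates 1 to 4 had 46.3, 77.2, 76.1 and 68.7 CPM. Of these, 3 exceeded every control and pregnant replicate 1 did not. The log2 difference was 0.49 ± 0.23 (edgeR adjusted p = 0.164, 95% interval 0.98-fold to 2.00-fold), so the data do not tell a doubling from no change. It was 0.47 without control replicate 4. None of the 9 genes shared exonic bases with another gene in the deposited annotations.

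Levels of different genes were compared as CPM per kilobase of exon. PGRMC1 was highest in both groups, with 212 ± 39.6 in controls and 208 ± 43.5 in pregnant animals (SD, n = 4). Next in controls stood GPER1 (39.0 ± 20.4), ESR1 (34.9 ± 3.65), FKBP5 (29.9 ± 9.20) and PGRMC2 (22.0 ± 3.01), whose neighbours in this order overlapped in range. NR3C1 (2.91 ± 0.718) and PGR (1.38 ± 0.368) followed, separated from PGRMC2 and from each other, and GREB1 (0.711 ± 0.624) was last and overlapped PGR. In pregnant animals the order was PGRMC1, FKBP5 (42.0 ± 8.98), PGRMC2 (22.1 ± 1.05) and ESR1 (13.9 ± 1.88), each clear of the next. GPER1 (11.1 ± 3.004) and GREB1 (8.90 ± 3.22) came next and overlapped with their neighbours in the order ESR1, GPER1, GREB1. NR3C1 (3.47 ± 0.288), PGR (1.52 ± 0.17) and ESR2 (0.151 ± 0.0876) closed the order without overlap. GREB1 thus moved from below PGR to above NR3C1 and PGR. ESR1 was the highest of the 4 nuclear receptor genes in both groups, a rank that rests on its short model.

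**Figure D3:**
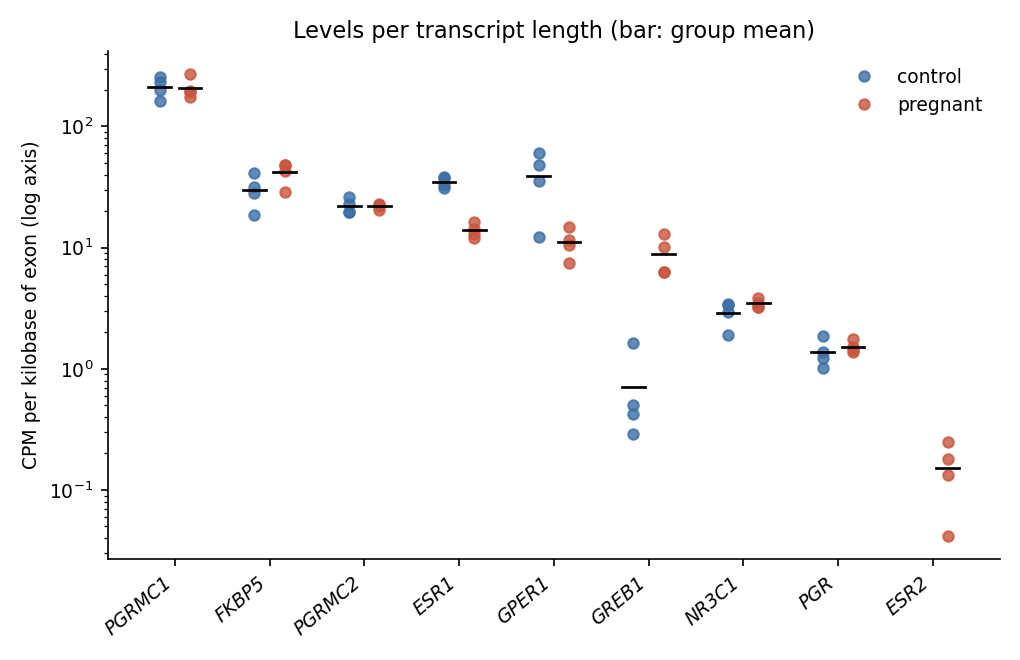
CPM per kilobase of exon (log axis) for each gene, with 1 point per animal and a bar at the group mean. ESR2 has no control points because controls had no reads. PGRMC1 lies above 160 in every animal, and GREB1 moves from a mean of 0.711 to 8.90.

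Ratios within a library do not depend on the scaling between libraries, and they set the changes of 2 genes against each other. In control replicates 1 to 4 there were 3.94, 3.82, 3.37 and 2.04 ESR1 reads per PGR read, and in pregnant replicates 1 to 4 there were 1.01, 1.17, 0.976 and 1.40. The groups did not overlap, and the ratio was 2.83-fold lower in pregnant animals (log2 difference −1.50). GREB1 reads per ESR1 read were 0.0833, 0.232, 0.0417 and 0.0737 in controls and 2.37, 4.21, 2.80 and 4.24 in pregnant animals. The ratio was 37.6-fold higher in pregnant animals (log2 difference 5.23), and the groups did not overlap. These are ratios of reads, from models of 2997 exonic bases for GREB1 and 556 for ESR1, and not of levels. Per kilobase the mean level of GREB1 was below that of ESR1 in both groups, as given above. For both ratios the two-sided exact permutation test gave p = 0.0286, the smallest that 4 against 4 animals allow. After adjustment over the 4 ratios compared this permutation p was 0.0571, which did not pass. Unless another ratio also reached the smallest p, no separation of the groups could have made these 2 ratios pass. PGRMC1 reads per PGRMC2 read ran from 8.42 to 11.3 in controls and from 8.45 to 12.1 in pregnant animals (log2 difference −0.04, exact permutation p = 0.857, adjusted p = 0.857). FKBP5 reads per NR3C1 read ran from 4.10 to 5.84 and from 4.36 to 7.15 (log2 difference 0.23, exact permutation p = 0.286, adjusted p = 0.381). Without control replicate 4 the 4 log2 differences were −1.72 for ESR1 to PGR, 5.15 for GREB1 to ESR1, −0.11 for PGRMC1 to PGRMC2 and 0.14 for FKBP5 to NR3C1.

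**Figure D4:**
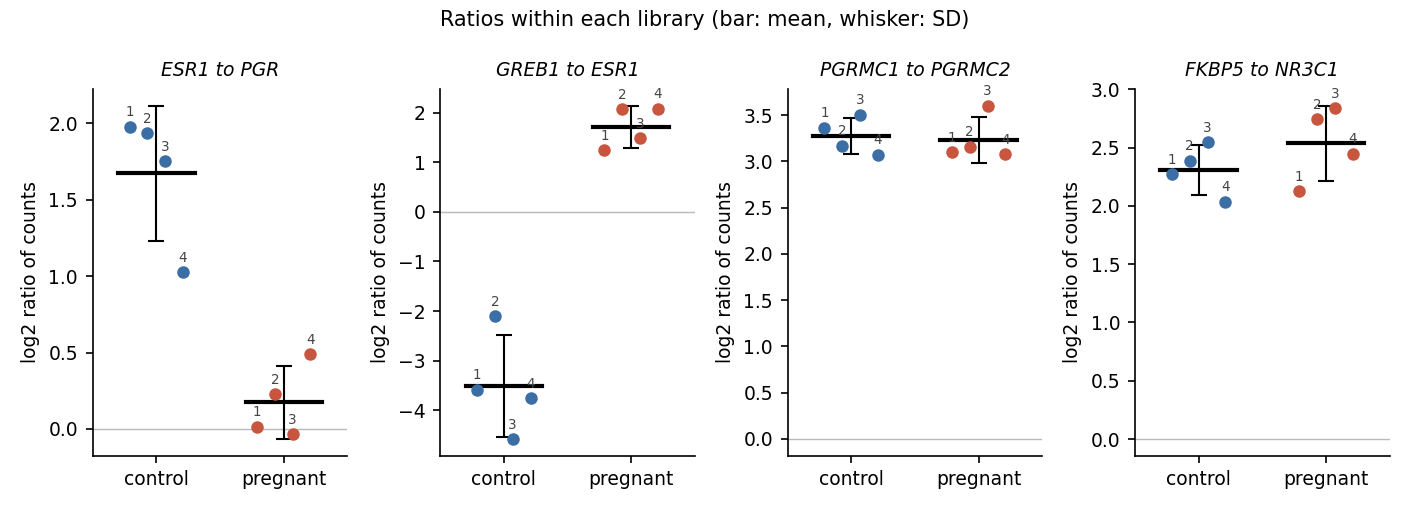
Log2 ratio of counts of 2 genes within each library, 1 point per animal with its replicate number, bar at the mean and whisker for the SD. The groups lie apart for ESR1 to PGR and for GREB1 to ESR1, and overlap for the other pairs.

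Genes around the receptors were read from lists of known partners and targets. Of 19 tested coregulators 1 rose, 3 fell and 15 did not pass (median log2 change −0.08). GATA2, a factor that works with PGR in the uterus, fell from 143 ± 16.6 to 80.1 ± 8.76 CPM (SD, n = 4; log2 change −0.84 ± 0.13). CITED1, a coactivator of ESR1, fell by 1.35 ± 0.32 and PPARGC1B, a coactivator of oestrogen-related receptors, by 1.01 ± 0.31 on the log2 scale. GATA3 rose from 2.74 ± 0.901 to 6.47 ± 1.38 CPM. The p160 coactivator genes NCOA1, NCOA2 and NCOA3, named after their values were seen, had log2 differences of 0.29, 0.40 and 0.47 and did not pass. The coactivator genes CARM1, EP300 and CREBBP, named likewise, had log2 differences of −0.39, −0.21 and −0.18 and did not pass either. Of 15 chaperone genes 2 fell and 13 did not pass (median −0.17). These were HSP90AB1, from 585 ± 72.5 to 418 ± 24.4 CPM, and STIP1, which links heat shock proteins 70 and 90, from 124 ± 6.65 to 98.0 ± 8.35 CPM. HSPA4 and DNAJB1 had log2 differences of −0.49 ± 0.21 and −0.25 ± 0.12 and did not pass. Neither of the fallen genes passed without pregnant replicate 2 or 4, and 1 passed without control replicate 2, 3 or 4 or pregnant replicate 1. Of 8 other steroid and oestrogen-related receptors PAQR8, a membrane progesterone receptor, fell from 18.5 ± 2.58 to 11.1 ± 0.807 CPM and 7 did not pass, among them ESRRA (−0.27 ± 0.13) and the mineralocorticoid receptor gene NR3C2 (0.53 ± 0.25). The shares called in these 3 lists, 21.1%, 13.3% and 12.5%, were at or below the 21.3% over all transcripts.

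Of 22 tested oestrogen-induced genes 1 rose, 2 fell and 19 did not pass (13.6% called, beside 21.3% over all transcripts, 11.2% as higher and 10.1% as lower; median −0.09). The gene that rose was AREG, a ligand of the EGF receptor, with 0 to 0.136 CPM in controls and 0.779 to 1.34 CPM in pregnant animals. It reached the test only through its counts in pregnant animals, so its call as higher is a description only. The small heat shock gene HSPB8 fell by 0.55 ± 0.14 and the growth factor gene IGF1 by 0.75 ± 0.24 on the log2 scale. Neither of these falls passed without control replicate 3 or pregnant replicate 2 or 4, while 2 genes passed as higher without control replicate 3. CA12, a carbonic anhydrase gene induced through ESR1 in other tissues, had a log2 difference of −0.94 ± 0.33 (edgeR adjusted p = 0.0683). TFF3 and TGFA were left out by the filter. TFF3 had 46 reads in all controls and 14 in all pregnant animals, and TGFA 19 and 28. GREB1, which is not in this list, rose in the same animals.

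Of 23 progesterone-induced uterine genes 4 rose, 3 fell and 16 did not pass (30.4% called, beside 21.3% over all transcripts, 11.2% as higher and 10.1% as lower; median 0.06). The 4 that rose include AREG, which is also in the oestrogen-induced list and reached the test only through pregnant animals. Without pregnant replicate 2, 3 rose and 1 fell. The number that fell was also 1 without control replicate 2 or pregnant replicate 4. HAND2, a stromal transcription factor downstream of PGR, rose from 20.9 ± 4.91 to 41.4 ± 3.37 CPM, and the epithelial signal gene IHH from 5.33 ± 3.37 to 17.9 ± 3.59 CPM. CYP26A1, which degrades retinoic acid, fell from 188 ± 37.9 to 3.71 ± 4.28 CPM. The other members that passed, beside AREG, were HSD17B2 (0.99 ± 0.29), an enzyme that inactivates oestradiol, HSD11B2 (−0.89 ± 0.27), an enzyme that inactivates cortisol, and the hedgehog effector GLI1 (−1.01 ± 0.28), which were named after their values were seen. IGFBP1, a decidual marker of other species, was left out by the filter. It had 0 reads in controls and 49, 65, 41 and 9 in pregnant replicates 1 to 4. This was 54.0-fold above a floor of 3 counts over the control group. As for ESR2, the floor covers counting error in controls only, and these reads may stand for fewer fragments, with a smaller fold.

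Of 15 glucocorticoid-induced genes 6 rose and 9 did not pass (40% called, beside 21.3% called and 11.2% called as higher over all transcripts; median 0.21, beside −0.02). The phosphatase gene DUSP1 rose from 123 ± 56.9 to 420 ± 113 CPM, and NFKBIA, the inhibitor of NF-kappa B, from 29.9 ± 7.28 to 63.3 ± 13.0 CPM. KLF9, a transcription factor gene that PGR and NR3C1 both induce, rose from 11.0 ± 4.11 to 23.7 ± 3.30 CPM, and TSC22D3 from 107 ± 17.8 to 174 ± 26.4 CPM. SGK1 (0.88 ± 0.21) and PDK4 (0.92 ± 0.24) also rose, and were named after their values were seen. The classical targets PER1 (0.21 ± 0.28) and ZBTB16 (−0.03 ± 0.27), named likewise, did not pass. Many genes of this list respond to other signals too. In the same animals all 11 T and natural killer cell markers (GZMA as a description only, as above) were higher, as were 7 of 9 macrophage markers. The part of these signals and cells in these rises was not tested.

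**Figure D5:**
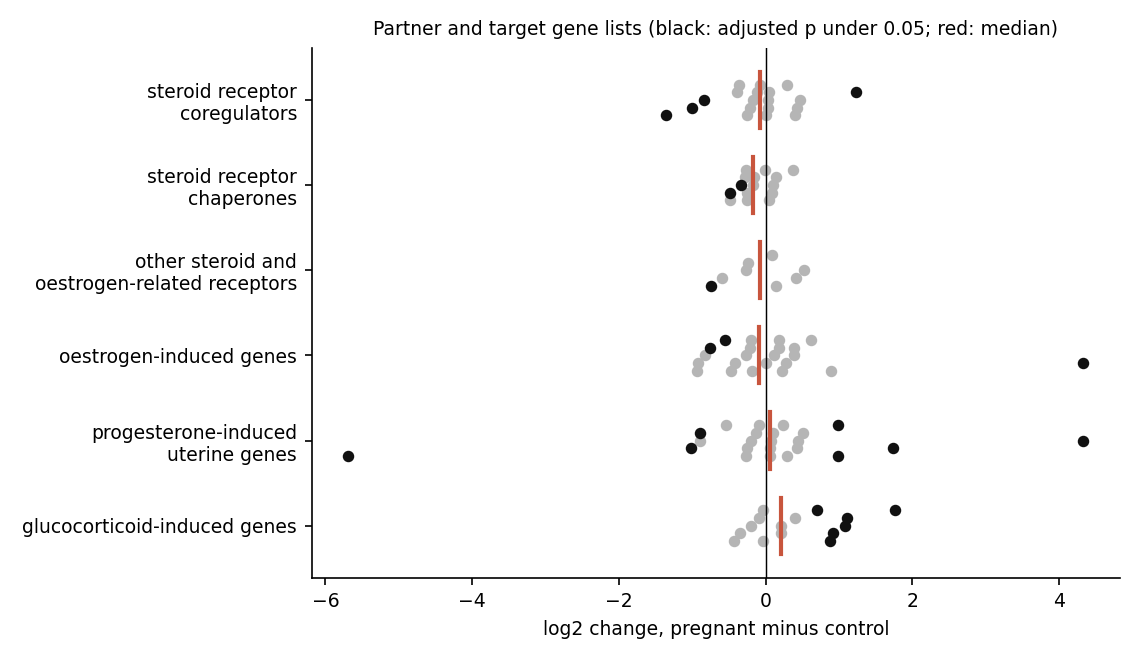
Log2 change of pregnant over control for the tested members of 6 lists, 1 point per gene, with a red line at the list's median. Black points passed an adjusted p of 0.05 and grey points did not. All black points of the glucocorticoid-induced list lie above 0, and the other lists with more than 2 black points have them on both sides.

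The genes whose levels ran most like those of the receptors were sought among 10217 genes, by Pearson's correlation of log2 CPM over the 8 libraries, given as a description. For ESR1 they were NEO1 (r = 0.997), C10H9orf72 (0.994) and EPHB3 (0.994), which share its fall between the groups. For GREB1 they were ABCB10 (0.981), NFKB2 (0.981) and CTH (0.973), with smaller log2 changes of 1.31, 0.45 and 1.60. For PGR they were the kinase gene CDK7 (0.964), the endothelial receptor gene TEK (0.959) and FAM13C (0.926), and for NR3C1 DYNC1LI1 (0.990), SYNCRIP (0.987) and STARD3NL (0.981). After subtraction of each group's mean, RORB (0.963), EMCN (0.952) and PLA2R1 (0.947) were most like ESR1, and ADAM28 (0.998), CDK7 (0.968) and TEK (0.959) most like PGR. The 8 points of each correlation share their libraries and their 2 groups.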

How the data were processed

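Endometrial poly(A) RNA of 4 control and 4 pregnant gilts was sequenced without strand information. The values deposited by the authors are raw counts of reads for each transcript of a merged assembly, as the column headings and whole numbers show. CASAVA 1.6, TopHat 1.4, Cufflinks 1.3, DESeq and the build Sscrofa10.2 are named in the submitters' processing notes. The counting tool is not given in the sources used here. Exon positions came from the deposited annotation. Symbols came from RefSeq's gene list for Sscrofa11.1, which served for naming alone (16373 of 21064 Entrez genes matched).

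All transcripts were fitted together in edgeR 4.0.16 under R 4.3.3, with TMM scaling, filterByExpr (at least 10 counts), a robust quasi-likelihood dispersion and group as the sole term. The filter left 18783 transcripts and removed 5356. Each SE and 95% interval comes from the F statistic and its degrees of freedom. CPM use TMM-scaled library sizes, and CPM per kilobase divide by exonic bases. Ratios used counts plus 0.5 and exact permutation tests in scipy 1.17.1. Alternatives were DESeq2 1.42.0, limma 3.58.1 (voom), other scalings, no filter, 1 transcript per gene, a replicate block and leaving out each animal. The fit was tested on simulated data.

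The 9 genes and the gene lists were chosen with earlier results of these data known. The rule for naming took the 9 genes, from every list at most 4 tested members by lowest p, and the 3 genes most like ESR1, PGR, GREB1 and NR3C1 that had a symbol and an average log2 CPM of at least 1. Marker lists are given mainly as sums. Not every gene so chosen is reported here.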

Additional observations from a re-analysis of the deposited data

Results flagged for a closer look

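Among 25 sets of 4 animals checked for 1 value far from the others (9 genes and 4 ratios, by group), 2 were found, where chance gives about 1 in 20. GREB1 stood at 4.91 CPM in control replicate 2, well above the other 3 controls. The log2 ratio of PGRMC1 to PGRMC2 was 3.60 in pregnant replicate 3, above the other 3 pregnant animals.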

How the results depend on the processing

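ESR1 and GREB1 passed under all 15 alternatives, with log2 changes of −1.41 to −1.26 and 3.38 to 4.47. GPER1 passed under 13 of 15, and the number of the 9 genes called lay between 2 and 4. The count of 4 came without the low count filter and includes ESR2, which had no control reads. PGR and NR3C1 passed under none. The sign of the uncalled differences turned when single animals were left out for PGRMC1 (−0.18 to 0.069), PGRMC2 (−0.047 to 0.099) and the log2 ratio of PGRMC1 to PGRMC2 (−0.17 to 0.031). For the other 3 ratios no direction changed, and leaving out an animal or pairing makes a pass impossible there (smallest two-sided exact permutation p = 0.0571 and 0.125). The labels give no pairing of same-numbered animals, and the main fit used none. Deviations of same-numbered animals from the group means correlated at 0.19, −0.09, −0.03 and 0.09 for replicates 1 to 4. These values cannot decide whether such animals shared a block. With a replicate block 3883 transcripts passed in place of 4009, FKBP5 passed (log2 change 0.52, adjusted p = 0.0213) and GPER1 did not (−1.67, 0.0824). Called list members moved by over 1.5 times for chaperones (2 to 1 without the filter, as above when animals were left out), oestrogen-induced genes (3 to 1 without pregnant replicate 2 or 4), progesterone-induced genes (7 to 4 without pregnant replicate 2), conceptus markers (2 to 1 with limma voom), stromal markers (5 to 2 with the block; 2 without control replicate 3, 3 without pregnant replicate 2, 3 or 4) and endothelial markers (2 to 4 without control replicate 4). The cause was not tested. Other transcripts of the 9 genes could not be tried because each had 1. Depth limits ESR2.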
